A study of Mus musculus with 4 samples.

Results

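The endogenous inhibitors of angiogenesis on the PCR array were 7 genes of the 84 array genes, chosen by symbol (*Thbs1*, *Thbs2*, *Bai1*, *Col18a1*, *Col4a3*, *Serpinf1* and *Lect1*). They were measured by RT-qPCR in total RNA of ischemic adductor and gastrocnemius muscle on day 21. FVB mice (FVB/NJ in the methods) aged 10 to 12 weeks, male and female, received intramuscular E-sel/AAV2/2, an adeno-associated virus vector carrying murine E-selectin, or LacZ/AAV2/2 as control. The total dose of 1e11 viral genomes was divided over 3 injection days (4 and 2 days before surgery and the day of surgery). Both groups then underwent femoral vessel coagulation and received L-NAME (40 mg/kg per injection), a nitric oxide synthase inhibitor. The promoter that drives the transgenes is not given in the sources used here. By the sample records, RNA of 3 mice was combined into 1 pool per group and each pool was run on 2 arrays, whereas the methods give 3 to 6 mice per group. The 2 runs were therefore treated as repeat measurements of 1 pool, and no value below carries an error between mice.

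Angiogenesis is held in check by proteins that tissues make themselves. Thrombospondin-1 (*Thbs1*) and thrombospondin-2 (*Thbs2*) are secreted matrix proteins whose type 1 repeats act on endothelial cells through CD36, and brain-specific angiogenesis inhibitor 1 (*Bai1*, now *Adgrb1*) is an adhesion G protein-coupled receptor that carries repeats of the same kind. Collagen XVIII (*Col18a1*) and the collagen IV α3 chain (*Col4a3*) are basement membrane proteins that release the inhibitory fragments endostatin and tumstatin when cut by proteases. Pigment epithelium-derived factor (*Serpinf1*) is a secreted serpin, and chondromodulin (*Lect1*, now *Cnmd*) is a cartilage glycoprotein that repels vessels.

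The values were ratios calculated by the ΔΔCt method, in which E-sel/AAV2/2 was divided by LacZ/AAV2/2 separately for run 1 and run 2, with *Gapdh* set to 1. Levels within a group were therefore not known, and a ratio cannot tell fewer cells of a type from less RNA per cell. In run 1, 6 of the 7 inhibitors had a ratio, and in run 2 all 7 had one. *Col4a3* lacked a ratio in run 1, so 6 inhibitors entered the comparisons over both runs, among 78 array genes. The array holds no gene that marks skeletal muscle fibers, so the labelled tissue could not be checked against such markers.

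*Bai1* was the lowest of the 81 array genes with a ratio in run 2, whereas in run 1 it was ranked 59 of 79 from the highest, beside *Thbs2* (57) and above *Thbs1* (74.5). For the other 5 inhibitors with both runs the geometric mean of the run ratios lay between 0.584 (*Thbs1*) and 0.973 (*Lect1*) when the mean of *Gapdh*, *Actb*, *Hsp90ab1*, *B2m* and *Gusb*, the 5 housekeeping genes, served as reference, and between 1.09 (*Thbs1*) and 1.82 (*Lect1*) relative to *Gapdh* alone, so that their direction turned with the reference. *Col18a1* and *Serpinf1* lay below the median of the remaining array genes in both runs, and *Lect1* above it in both. *Thbs1* and *Thbs2* were below that median in run 1 and above it in run 2.

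**Figure D1:**
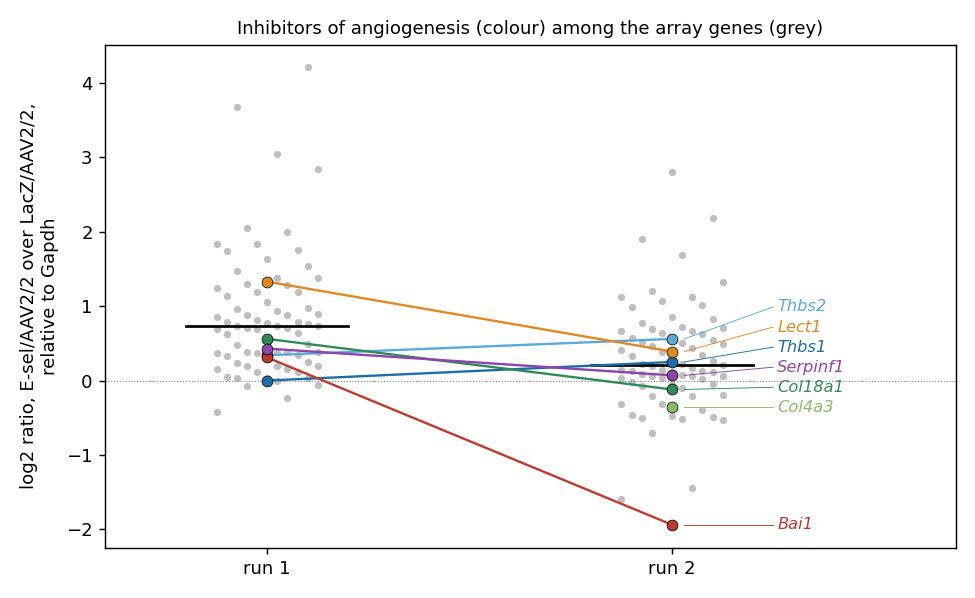
Deposited log2 ratios of E-sel/AAV2/2 over LacZ/AAV2/2 relative to *Gapdh* in run 1 and run 2 (vertical axis), with the inhibitors as coloured points joined between runs, the remaining array genes as grey points spread sideways for visibility, and their median as a black bar. *Bai1* lies at the bottom of run 2, *Thbs1* and *Thbs2* were the inhibitors with a higher ratio in run 2, and *Col4a3* has a point in run 2 only.

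The thrombospondins were described from their ratios in each run. Relative to *Gapdh*, *Thbs1* was at 1.00 in run 1 and at 1.19 in run 2. *Thbs2* was at 1.27 and 1.47. Both were thus higher in run 2, as were 11 of the 78 array genes (14.1%), while the other 4 inhibitors with both runs were among the 66 genes with the higher ratio in run 1. Within the array, *Thbs1* went from rank 74.5 of 79 (a tie) to rank 38 of 81, and *Thbs2* from rank 57 to rank 24. Relative to the median of the remaining array genes, the log2 ratio of *Thbs1* was -0.73 in run 1 and 0.04 in run 2, and that of *Thbs2* was -0.39 and 0.35. *Thbs2* thus changed side between the runs, while for *Thbs1* the change rested on the small value of run 2, and with the mean of the remaining genes as centre it was below in both runs.

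*Bai1* was at 1.24 relative to *Gapdh* in run 1 and at 0.261 in run 2, a 4.76-fold difference between repeat measurements of the same pools. Of the 78 genes, 4 differed more than 4-fold between the runs on this scale, and *Bai1* was among them with *Timp1*, *Sphk1* and *Ptgs1*. Relative to the 5 housekeeping genes the ratio of *Bai1* was 0.623 in run 1 and 0.149 in run 2, and their geometric mean was 0.305. It was the 1 inhibitor of 6 that passed 2-fold (lower), beside 11.5% of the 78 genes, and 0 inhibitors passed 2-fold higher, beside 3.85%. In run 1 alone it did not pass 2-fold on this scale.

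The basement membrane collagens were below 1 against the mean of the 5 housekeeping genes wherever they had a ratio, but *Col18a1* was not below 1 against *Gapdh* alone on the mean of the runs. *Col18a1* was at 1.47 (run 1) and 0.920 (run 2) relative to *Gapdh*. Against the mean of the 5 housekeeping genes these ratios were 0.741 and 0.526, and their geometric mean was 0.624, while 69.2% of the 78 genes were below 1 in both runs on this scale. *Col4a3* was at 0.779 relative to *Gapdh* in run 2, which was 0.445 with the 5 housekeeping genes as reference and ranked 70 of 81. With a single ratio, it has no measured spread between runs.

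The secreted factors differed from each other in position. *Serpinf1* was at 1.35 (run 1) and 1.05 (run 2) relative to *Gapdh*, with ranks of 49 and 51.5 (a tie), the smallest change of rank among the 6 inhibitors with both runs. With the 5 housekeeping genes as reference it had a geometric mean of 0.637. *Lect1* was the highest inhibitor in run 1, at 2.51 relative to *Gapdh*, and was at 1.31 in run 2, with ranks of 16 and 32. Relative to the 5 housekeeping genes it was 1.26 in run 1 and 0.749 in run 2, so its direction differed between the runs on that scale.

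Promoter sequences of the inhibitors that lay above the middle of the remaining array genes in run 2 (*Thbs1*, *Thbs2* and *Lect1*) are shown as far as the RefSeq table of GRCm38.p6 holds them, which is for *Thbs2* and *Lect1*. This choice rests on the values of run 2. In run 1 *Lect1* was above that middle (log2 0.6), whereas *Thbs1* (-0.73) and *Thbs2* (-0.39) were below it. Each is the 250 bases before the annotated start, 5′ to 3′ on the minus strand, at chr17:14694263-14694512 for *Thbs2* and chr14:79662184-79662433 for *Lect1*. Capitals mark the letters searched on either strand, TATAAA for the TATA box, then CCAAT, and GGGCGG for the GC box, and a match on the opposite strand appears as its reverse complement.

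Thbs2: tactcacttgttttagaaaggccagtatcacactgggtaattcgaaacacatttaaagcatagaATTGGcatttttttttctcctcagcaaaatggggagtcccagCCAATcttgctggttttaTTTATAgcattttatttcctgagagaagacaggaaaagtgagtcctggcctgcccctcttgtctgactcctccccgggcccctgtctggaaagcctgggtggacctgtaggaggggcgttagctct

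Lect1: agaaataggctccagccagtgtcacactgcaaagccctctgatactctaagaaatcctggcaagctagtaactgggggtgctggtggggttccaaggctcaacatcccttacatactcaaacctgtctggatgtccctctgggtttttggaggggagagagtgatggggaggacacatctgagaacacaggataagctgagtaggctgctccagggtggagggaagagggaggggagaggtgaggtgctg

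The *Thbs2* window holds 2 CCAAT matches, beginning 186 and 144 bases before the start, 1 TATAAA at 126 bases and 0 GGGCGG. The *Lect1* window holds 0 of the 3 motifs. Of the 32851 windows of the same length in the table, 33.8% hold CCAAT, 12.4% TATAAA and 32.7% GGGCGG. These are matches of letters, and the array does not measure what binds there.

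Differences between 2 genes of the same run do not depend on the reference, so the order of the inhibitors could be compared between runs. By the mean of the runs the order from the highest was *Lect1*, *Thbs2*, *Serpinf1*, *Col18a1*, *Thbs1* and *Bai1*. In each of the 5 neighbouring pairs the sign of the difference changed between runs, so no neighbours were separated beyond the spread of the runs. Among pairs further apart, *Lect1* was above *Serpinf1*, *Col18a1*, *Thbs1* and *Bai1* in both runs, and *Thbs2* was above *Thbs1*. *Bai1* was below *Thbs2*, *Serpinf1* and *Col18a1* in both. *Thbs2* against *Col18a1* and *Serpinf1* against *Thbs1* changed sign. The gap between *Lect1* and *Thbs2* was 0.99 on the log2 scale in run 1 and -0.17 in run 2. That between *Thbs1* and *Bai1* was -0.31 in run 1 and 2.19 in run 2.

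The inhibitors were then compared with LacZ/AAV2/2 relative to the 5 housekeeping genes, the reference named in the methods. On this scale 5 of the 6 inhibitors were below 1 in both runs (*Thbs1*, *Thbs2*, *Bai1*, *Col18a1* and *Serpinf1*), and so were 69.2% of the 78 genes, although each log2 fold change is 0.90 higher relative to *Gapdh* alone. The median log2 fold change was -0.67 over the 6 inhibitors (-0.61 in run 1, and -0.74 in run 2 with *Col4a3* included) and -0.45 over all 78 genes, and the median of the inhibitors turned to 0.235 with *Gapdh*. In the limma test across the 78 genes, 0 of the 6 inhibitors had an adjusted p under 0.05, as did 0% of the genes. At an unadjusted p under 0.05 3 of the 6 were lower (*Thbs1*, *Serpinf1* and *Col18a1*), beside 34.6% of the genes. The log2 fold change was -0.78 for *Thbs1* (standard error 0.209, limma adjusted p = 0.0918), -0.65 for *Serpinf1* (0.178, adjusted p = 0.0921) and -0.68 for *Col18a1* (0.219, adjusted p = 0.116). For *Bai1* it was -1.72 with a standard error of 0.596, and the limma adjusted p was 0.132. *Thbs2* (-0.45, limma adjusted p = 0.187) and *Lect1* (-0.04, adjusted p = 0.927) also did not pass. The test sees only the spread between 2 array runs of the same pools.

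Compared with the remaining array genes within each run, which needs no reference gene, the inhibitors lay on both sides of the median. Of the 6 with a ratio in run 1, 5 were below the median of the 73 remaining genes with one. In run 2 4 of 7 were below that of 74. Beside these, 41 of all 79 array genes with a ratio were below in run 1, and 41 of 81 in run 2. In both runs 3 of 6 were below (*Bai1*, *Col18a1* and *Serpinf1*), beside 37.2% of the 78 genes, and 1 was above (*Lect1*), beside 32.1%. The median difference from the remaining genes was -0.24 on the log2 scale for the 6 inhibitors and -0.02 for all 78 genes. For the same 6 inhibitors it was -0.345 in run 1 and -0.055 in run 2.

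**Figure D2:**
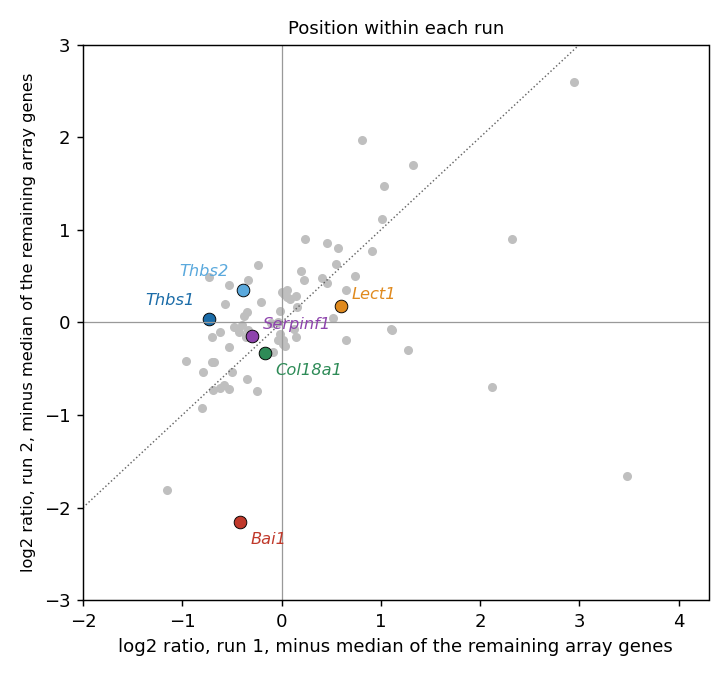
Log2 ratio of E-sel/AAV2/2 over LacZ/AAV2/2 minus the median of the remaining array genes, run 1 (horizontal) against run 2 (vertical), for the 6 inhibitors with both ratios (colour) and the remaining array genes (grey). The dotted line marks equal values, *Thbs1* and *Thbs2* lie above it with *Serpinf1* close to it, and *Bai1* lies far below at -0.42 and -2.16.

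On this scale *Bai1* was the 1 inhibitor of 6 past 2-fold, beside 2.56% of the genes in the lower direction. It was also the 1 inhibitor with a limma adjusted p under 0.05, beside 7.69% of the genes in either direction. At an unadjusted p under 0.05 in the lower direction it was again the 1 inhibitor, beside 3.85% of the genes. Its log2 difference was -1.29 (standard error 0.431, limma adjusted p = 0.0488), from -0.42 in run 1 and -2.16 in run 2. The fit gave all 78 genes the same standard error, so the wide gap between the runs of *Bai1* did not enter its own test. With the variance estimated robustly, an alternative chosen after seeing the data, the adjusted p was 0.174, and with the mean of the remaining genes as centre it was 0.287, so the call was lost under both. It was also lost, at 0.0513, when genes with a ratio in 1 run were added to the adjustment. The other 5 inhibitors lay between -0.35 (*Thbs1*) and 0.39 (*Lect1*), with limma adjusted p values from 0.783 to 0.993.

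The direction of 5 inhibitors against LacZ/AAV2/2 changed with the reference. Relative to *Gapdh* alone 5 of the 6 inhibitors were above 1 on the mean of the runs, beside 82.1% of the 78 genes. Relative to *Actb*, *B2m* or *Gusb* alone 0 were, beside 10.3%, 5.13% and 11.5%. With *Hsp90ab1* alone 2 were above 1 (*Thbs2* and *Lect1*), beside 64.1%. The housekeeping genes themselves did not move alike, with ratios relative to *Gapdh* of 2.57 and 2.16 for *Actb*, 3.34 and 3.56 for *B2m*, 3.05 and 1.67 for *Gusb*, and 1.19 and 1.28 for *Hsp90ab1* in run 1 and run 2. On the mean of the runs *Bai1* was below 1 with each of the 11 references tried, from -2.60 (*B2m*) to -0.82 (*Gapdh*) on the log2 scale, with limma adjusted p values from 0.000281 to 0.590. The lowest of these came from the *B2m* fit, which gave all 78 genes the same standard error, as did those with *Gusb*, *Hsp90ab1*, the reverse transcription control wells and both medians of array genes. In the fits with standard errors that differed between genes the adjusted p of *Bai1* in limma lay from 0.121 (*Actb*) to 0.415 (*Gapdh*). In run 2 it was below 1 with all 11, whereas in run 1 it was above 1 with 4 of them (*Gapdh*, *Hsp90ab1* and both kinds of control wells). *Lect1* was the highest of the 6 with all of them, as an order on the mean of the runs cannot change with the reference.

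**Figure D3:**
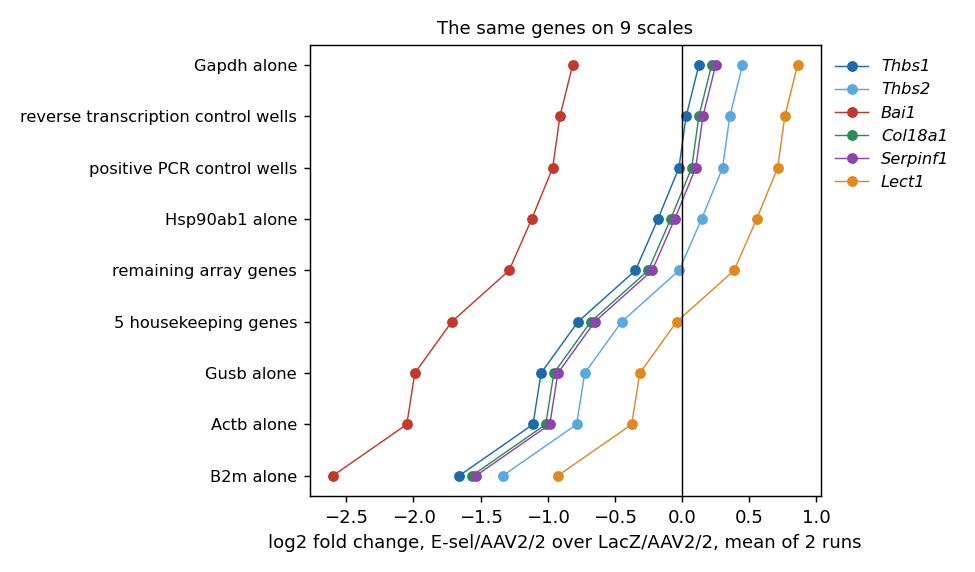
Log2 fold change of each inhibitor (horizontal, mean of 2 runs, lines join the values of a gene) with 9 references (vertical). The genes keep their spacing while the zero line moves through them, from 0 of 6 above zero with *B2m* to 5 of 6 with *Gapdh*, and *Bai1* stays on the lower side.

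For each inhibitor, the genes outside the list with the most similar pair of ratios were found by the Euclidean distance of the 2 log2 run ratios, so likeness rests on 2 values. *Thbs2* was closest to *Vegfc* (distance 0.12) and *Vegfa* (0.15), which encode growth factors of lymphatic and blood vessels. *Thbs1* was closest to *Egf* (0.18) and *Tgfb3* (0.19), and *Col18a1* to *Ang* (0.08) and *Pdgfa* (0.20). *Serpinf1* was closest to *Mmp19* and *Efnb2* (both 0.06), and *Lect1* to *Nos3* (0.15) and *Ctgf* (0.19). *Bai1* had no near neighbour, as its closest genes were *Cxcl2* (0.81) and *Anpep* (1.29).

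Genes that act with the inhibitors were taken from lists by role. Against the 5 housekeeping genes 0 genes of each list passed an adjusted p under 0.05 in limma, as did 0% of all 78 genes. Among 9 receptors and ligands that the inhibitors bind or activate, 8 were below 1 in both runs on that scale, beside 69.2% of all 78 genes. Their median log2 fold change was -0.27, beside -0.45 for all genes. The highest was *Itgb3*, whose integrin binds tumstatin (fold change 1.20), and the lowest was *Tgfb3* (0.553). *Tgfb1*, whose latent product thrombospondin-1 can activate, had ratios of 1.91 and 1.71 relative to *Gapdh* and was at 0.966 against the 5 housekeeping genes. Of the 5 proteases listed (*Mmp2*, *Mmp9*, *Mmp14*, *Plau* and *Plg*, without *Mmp19*), which include enzymes able to cut basement membrane collagens, 4 had both ratios and all 4 were below 1 in both runs (median -0.90, from *Mmp14* at 0.454 to *Plau* at 0.742), beside the same 69.2% of all genes. Among the inhibitors outside the list *Timp1* had ratios of 18.5 and 0.369 relative to *Gapdh*, in opposite directions, and *Timp2* had 1.12 and 1.33. *Plg*, the precursor of angiostatin, had a ratio in run 2 only (2.31), *Ifng* had none, and *Timp3* is not on the array.

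With the same reference, the 9 VEGF ligands and receptors had a median log2 fold change of -0.40, from *Flt1* (fold change 0.483) to *Pgf* (1.33). The 9 endothelial markers had a median of -0.26, from *Flt1* to *Pecam1* (1.01), and 5 of them were below 1 in both runs, beside 69.2% of all genes. The adipocyte gene *Lep* was at 5.08, and the 6 leukocyte and inflammatory genes with both ratios had a median of 0.14, from *Cxcl2* (0.267) to *Il6* (2.27). The median of these 6 turned from 0.66 in run 1 to -0.09 in run 2, and *Il6* was at 4.16 and 1.24. By the mean of the runs relative to the remaining array genes, the median was 0.16 for the receptors and ligands, -0.48 for the proteases, 0.03 for the VEGF genes, 0.17 for the endothelial markers and 0.57 for the leukocyte and inflammatory genes. These medians moved between run 1 and run 2, from 0 to 0.305 for the receptors and ligands, from -0.605 to -0.265 for the proteases (with *Plg* in run 2), from -0.04 to 0.305 for the VEGF genes, from -0.11 to -0.005 for the endothelial markers and from 0.925 to 0.5 for the leukocyte and inflammatory genes. On that scale *Tnf*, *Il6* and *Lep* were higher and *Cxcl2* lower with a limma adjusted p under 0.05, among the 7.69% of genes called, and with the mean of the remaining genes as centre these calls were lost (limma adjusted p from 0.108 for *Lep* to 0.217 for *Il6*). Whether a different share of these cells in the 2 pools moved the inhibitors was not tested.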

How the data were processed

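The authors deposited 2 tables of the whole series. In one, each column is a ratio per gene, calculated by the ΔΔCt method from the runs of equal number (E-sel/AAV2/2 divided by LacZ/AAV2/2), which the deposited header gives as normalized to a housekeeping gene. The other deposited table holds raw Ct values by plate position. These could not be matched to the ratios (over the 12 ordered pairs of Ct columns, Pearson's r from -0.25 to 0.25 and at most 2 wells equal within 0.015 log2 units) and were not used further. The depth behind a ratio is unknown, and the number of arrays limits the precision.

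Log2 ratios were shifted in each run to the mean of the 5 housekeeping genes, or to the median of the array genes outside the list. Fold changes are geometric means over both runs. The 78 genes with both ratios entered limma 3.58.1 (R 4.3.3, moderated by eBayes, two-sided, p adjusted by Benjamini-Hochberg). The code was run on simulated data with the same spread for all genes. The measured standard errors relative to the 5 housekeeping genes differed, from 0.171 to 1.52, so that run does not bear on the calls given here. Python 3.11.15 with pandas 2.3.3 was used otherwise. The members, lists and tests were chosen with earlier results of these data known. The genes named are the 7 members, the housekeeping genes, 2 nearest genes per member and the highest and lowest of each list; *Sphk1*, *Ptgs1*, *Tgfb1*, *Tnf*, *Mmp2*, *Mmp9*, *Mmp19* as a protease, *Ifng*, *Timp3* and *Plg* were named after the values were seen. Of the 7 symbols, 5 are current in RefSeq and 2 are older. Alternatives were other references, centres, thresholds, averages and gene sets, and each run left out.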

Additional observations from a re-analysis of the deposited data

How the results depend on the processing

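The ratios pair same-numbered runs, so the values above are paired (replicate block), such as the inhibitors' median of -0.67 (log2) against the 5 housekeeping genes. A fit without the pairing was not run, because the Ct values do not give the ratios. That median was -1.0 with *Actb*, -1.55 with *B2m*, -0.94 with *Gusb*, -0.07 with *Hsp90ab1*, 0.235 with *Gapdh*, 0.14 with the reverse transcription control wells and 0.087 with the positive PCR control wells. With either run left out it was -0.648 to -0.607 over the same 6 inhibitors, and -0.738 in run 2 with *Col4a3* included. Log2 fold changes that changed sign were, with *Gapdh*, 0.125 for *Thbs1*, 0.45 for *Thbs2*, 0.22 for *Col18a1*, 0.25 for *Serpinf1* and 0.86 for *Lect1*, with the reverse transcription control wells 0.03, 0.355, 0.125, 0.155 and 0.765, with the positive PCR control wells 0.302 (*Thbs2*), 0.072 (*Col18a1*), 0.102 (*Serpinf1*) and 0.712 (*Lect1*), and with *Hsp90ab1* 0.145 (*Thbs2*) and 0.555 (*Lect1*). With either run left out *Lect1* ranged from -0.42 to 0.34 against the 5 housekeeping genes, and relative to the remaining array genes *Thbs1* ranged from -0.73 to 0.035 and *Thbs2* from -0.39 to 0.345.

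Inhibitors with a limma adjusted p under 0.05 numbered 0 with the 5 housekeeping genes, also with genes of at least 1 run, housekeeping genes in the fit or robust variance, 1 with *Actb* (*Serpinf1*; 35.9% of the 78 genes), 5 with *B2m* (59% of genes), 1 with *Gusb* (*Bai1*; 15.4% of genes; as with *B2m*, 1 standard error for all genes) and 3 at an unadjusted p. Relative to the remaining array genes the count of 1 became 0 with their mean as centre, with genes of at least 1 run or with robust variance, the last 2 chosen after seeing the data. More than 2-fold lower, against 1 inhibitor, were 3 with *Actb* (29.5% of genes), 5 with *B2m* (70.5%), 2 with *Gusb* (23.1%), 0 with *Gapdh* or either kind of control wells (1.28% each), 4 at 1.5-fold (37.2%) and 0 when both runs had to pass. Relative to the remaining array genes, 0 passed at 3-fold or in both runs. The lowest of the 78 genes on that scale, *Cxcl2*, was at 0.359 and so did not pass 3-fold either. It was past 2-fold lower in both runs (0.451 and 0.286). With a run left out the counts over the 6 inhibitors with both ratios lay from 0 to 1 on both scales. *Col4a3*, outside these 6, was also past 2-fold lower in run 2 against the 5 housekeeping genes, at 0.445. The causes were not tested.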
